A study of Mus musculus with 8 samples.

Results

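The transcripts of 9 adherens junction genes were followed in esophageal keratinocytes sorted by their Cyto-ID signal: the classical cadherins Cdh1 and Cdh3, the catenins Ctnna1, Ctnnb1 and Ctnnd1, the nectins Nectin1, Nectin2 and Nectin4, and the nectin adaptor Afdn. They were taken by symbol from a table of 55276 genes, and all 9 were present and passed the filter on low counts that left 17344 genes for testing. Esophageal epithelium came from 4 C57BL6 mice aged 14 to 15 weeks, 2 female (Female1, Female2) and 2 male (Male1, Male2). Live cells positive for integrin beta 1, a surface protein of basal keratinocytes, were sorted into a Cyto-ID Low and a Cyto-ID High fraction, so that each animal gave both and each group holds 4 libraries. Cyto-ID is a dye that labels autophagic vesicles. No genotype change or drug was part of either group, and the fluorescence limits of the 2 gates are not given in the sources used here.

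Adherens junctions hold neighbouring epithelial cells together. Cadherins reach across the gap between cells and bind partners of the same kind, and their tails bind beta-catenin (Ctnnb1) and p120-catenin (Ctnnd1). Beta-catenin recruits alpha-catenin (Ctnna1), which couples the complex to actin. Nectins are immunoglobulin-type adhesion proteins that bind each other across the gap, and afadin (Afdn) ties them to actin and to the cadherin complex. In stratified epithelia such as the esophagus, P-cadherin (Cdh3) is known as a cadherin of the basal layer, whereas E-cadherin (Cdh1) is present through the living layers.

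The libraries held 26285150 to 29301054 counts. The number of genes with a count was lowest in the High library of Male2 (22208) and highest in the Low library of Female1 (28266). Levels are CPM, counts relative to a common library size, where libraries were scaled with edgeR's TMM factors, in the order Female1, Female2, Male1, Male2. The 8 basal keratinocyte markers, among them Krt5, Krt14 and Trp63, were all lower in the High fraction, with a summed level of 20600 to 24500 CPM in Low and 2720 to 4390 CPM in High. The 8 suprabasal markers, among them Krt4 and Krt13, were all higher in High, with sums of 7970 to 24300 CPM in Low and 136000 to 230000 CPM in High. Both fractions had been gated as integrin-positive, and the part of these layer markers in the results on junction genes was not tested. In bulk RNA, fewer cells of a type and less RNA per cell cannot be told apart. Marker sums of other cell types were far smaller and overlapped between fractions for leukocytes (28.6 to 42.5 CPM in Low, 21.2 to 71.2 in High), fibroblasts (312 to 484 and 36.9 to 464), endothelium (12.7 to 24.0 and 2.62 to 28.8), muscle (39.9 to 63.5 and 4.68 to 60.9) and melanocytes with Schwann cells (9.1 to 13.2 and 2.01 to 16.3). The Langerhans cell list, which includes the epithelial gene Epcam, summed to 197 to 266 CPM in Low and 98.7 to 156 in High, and 3 of its 5 markers were lower. In the other lists named here, 1 leukocyte marker was higher and 1 marker each of fibroblasts, muscle and melanocytes with Schwann cells was lower. The High library of Male2 had the lowest sum of each of these 6 lists. The gastric epithelial list reached 124 CPM in the High library of Female2 and 1.54 to 28.3 CPM in the other libraries. None of the 9 lists held a marker at 3 or fewer counts in all 8 libraries.

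Of the 9 genes, 6 were higher in the High fraction, 1 was lower and 2 did not pass the test (edgeR quasi-likelihood test with sex as covariate, Benjamini-Hochberg adjusted p under 0.05). Over all genes tested, 48.7% passed, 23.4% higher and 25.3% lower in High. Nectin4 and Afdn rose most, by 8.18-fold and 4.55-fold, and Cdh3 fell 5.85-fold. Nectin2, Nectin1, Cdh1 and Ctnnd1 rose by 2.00-fold, 1.76-fold, 1.61-fold and 1.496-fold. The fractions did not overlap in scaled CPM for these 7 genes, against 48.6% of all genes tested. With libraries scaled by total counts alone, the fractions overlapped for Nectin2, Nectin1, Cdh1 and Ctnnd1. The median log2 fold change was 0.68 for the 9 genes and -0.09 for all genes tested.

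**Figure D1:**
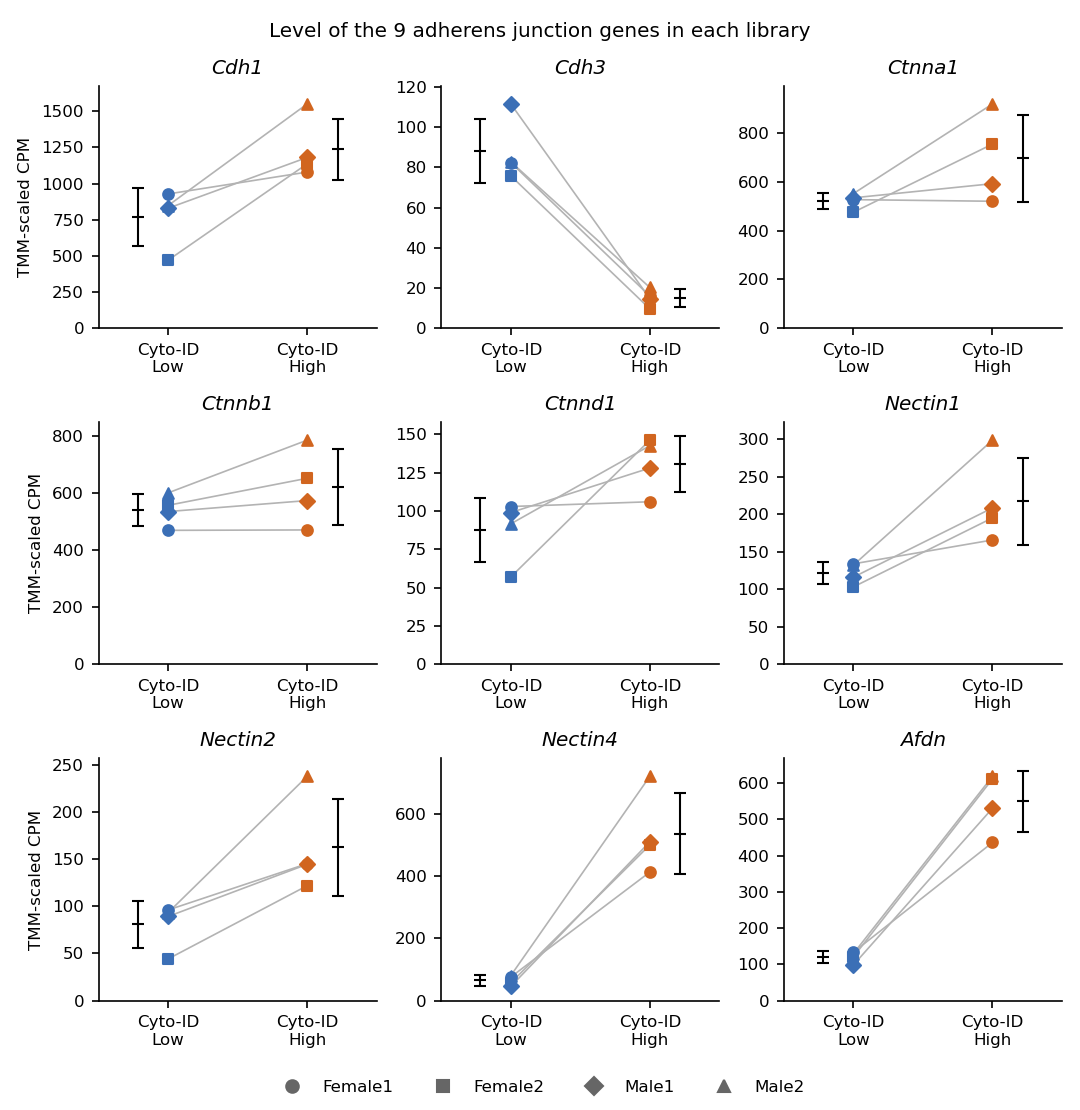
Level of each of the 9 genes (vertical axis, TMM-scaled CPM, starting at 0) in the Low and High fractions; lines join the libraries of 1 animal and black bars give the mean ± SD of 4. Cdh3 lies at 75.8 to 111.6 CPM in Low and 9.62 to 20.3 CPM in High, while Nectin4 and Afdn are higher in High in all 4 animals and Ctnnb1 overlaps between the fractions.

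The size of these changes depended on how libraries were scaled. TMM factors were 1.16 to 1.304 in Low and 0.679 to 0.944 in High. With total counts alone, the median of all genes tested moved by -0.545, from -0.0903 to -0.635 on the log2 scale, and 61.7% of genes passed. Under that scaling 4 of the 9 genes passed. Nectin4 was at 2.46 (adjusted p = 2.47e-05, edgeR), Afdn at 1.61 (adjusted p = 3.06e-05) and Cdh3 at -3.11 (adjusted p = 1.31e-05). Ctnnb1 changed sign to -0.39 (adjusted p = 0.0244). Cdh1 (0.12, adjusted p = 0.614), Ctnnd1 (0.01, adjusted p = 0.955), Nectin1 (0.24, adjusted p = 0.137) and Nectin2 (0.43, adjusted p = 0.125) no longer passed, and Ctnna1 was at -0.18 (adjusted p = 0.235). Measured from the median gene, the log2 values with TMM and with total counts were close. They were 0.77 and 0.75 for Cdh1, 0.67 and 0.65 for Ctnnd1, 0.91 and 0.87 for Nectin1, and 1.09 and 1.06 for Nectin2. A change of scaling shifts all genes by nearly the same amount, so this closeness is not a test of the calls. The rise of these 4 genes passed with TMM scaling and did not pass as a share of all counts.

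**Figure D2:**
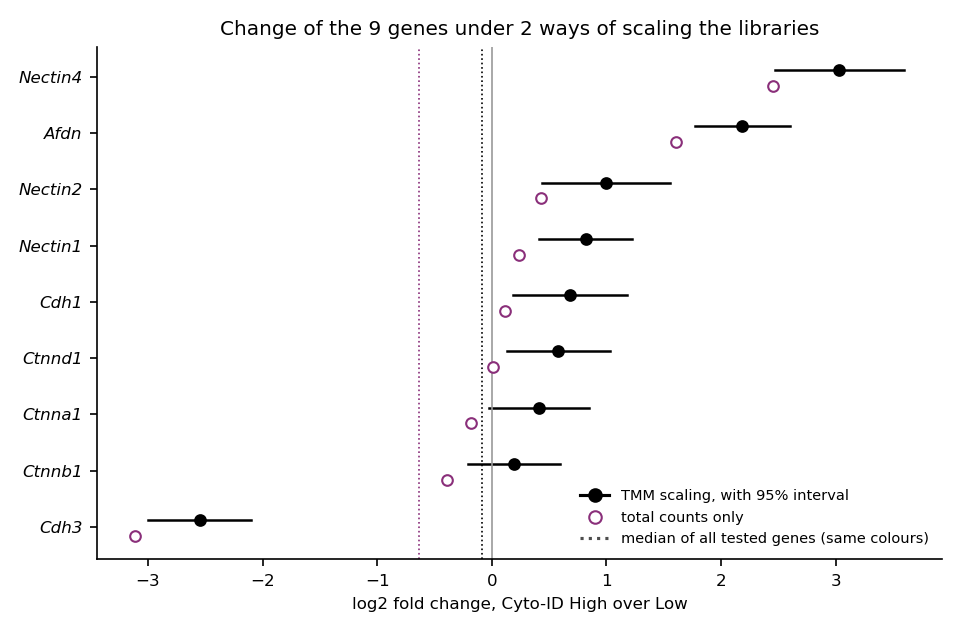
Log2 fold change of High over Low (horizontal axis) for the 9 genes, with TMM scaling (filled, bars are 95% intervals) and with total counts only (open); dotted lines are the medians of all genes tested under each scaling, -0.0903 and -0.635. Nectin4, Afdn and Cdh3 stay far from both medians, and the intervals of Ctnna1 and Ctnnb1 include 0.

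The 2 cadherins moved in opposite directions. They are neighbours on the plus strand of chromosome 8 (GRCm38), Cdh3 at chr8:106510891-106557297 and Cdh1 at chr8:106603351-106670246, with 46053 bases between them. Cdh1 stood at 928, 471, 830 and 848 CPM in Low and at 1080, 1137, 1181 and 1551 CPM in High. Its mean was 769 ± 204 CPM in Low and 1237 ± 213 CPM in High (SD, n = 4), and every High library lay above every Low library. The lowest Low value was that of Female2, which gave the largest within-animal log2 difference (1.27), against 0.22 in Female1, 0.51 in Male1 and 0.87 in Male2. The fitted log2 change of Cdh1 was 0.68 (SE 0.221, 95% interval 0.19 to 1.18, edgeR adjusted p = 0.0277). The call was lost, with log2 changes of similar size, without the High library of Female2 (0.67, adjusted p = 0.0667) or of Male2 (0.60, adjusted p = 0.069), and without both libraries of Male1 (0.73, adjusted p = 0.0568) or of Male2 (0.66, adjusted p = 0.0827).

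Cdh3 stood at 82.4, 75.8, 111.6 and 82.8 CPM in Low and at 16.01, 9.62, 14.7 and 20.3 CPM in High. The means were 88.2 ± 15.97 and 15.2 ± 4.39 CPM (SD, n = 4), and the highest High library was below the lowest Low library. The log2 change was -2.55 (SE 0.202, adjusted p = 1.66e-05, edgeR), and all 4 animals showed the fall, from -2.03 in Male2 to -2.97 in Female2. Its raw counts, 2669 to 3593 in Low and 221 to 415 in High, leave counting error small beside the spread between animals. No annotated exon of another gene overlaps either cadherin.

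The count of Cdh3 over that of Cdh1 within a library needs no scaling. It was 0.0888, 0.161, 0.135 and 0.0976 in the 4 Low libraries, and 0.0148, 0.00848, 0.0125 and 0.0131 in the 4 High libraries. The log2 ratio was -3.10 ± 0.40 in Low and -6.38 ± 0.35 in High (SD, n = 4), a ratio 9.78-fold lower in High. The fractions did not overlap. An exact two-sided permutation test then gave the smallest p that 4 against 4 allows (p = 0.0286). Adjusted over the 9 ratios compared, the permutation p was 0.0514. That test ignores that each animal gave both fractions. Paired within animals, the ratio was lower in High in 4 of 4 (exact sign-flip p = 0.125, the smallest that 4 animals allow). Per kilobase of exon, Cdh3 made up 11.1% ± 2.74 of the summed level of the 2 cadherins in Low and 1.26% ± 0.274 in High (SD, n = 4). The summed level itself was 188 ± 46.1 CPM per kb in Low and 274 ± 47.4 in High.

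**Figure D3:**
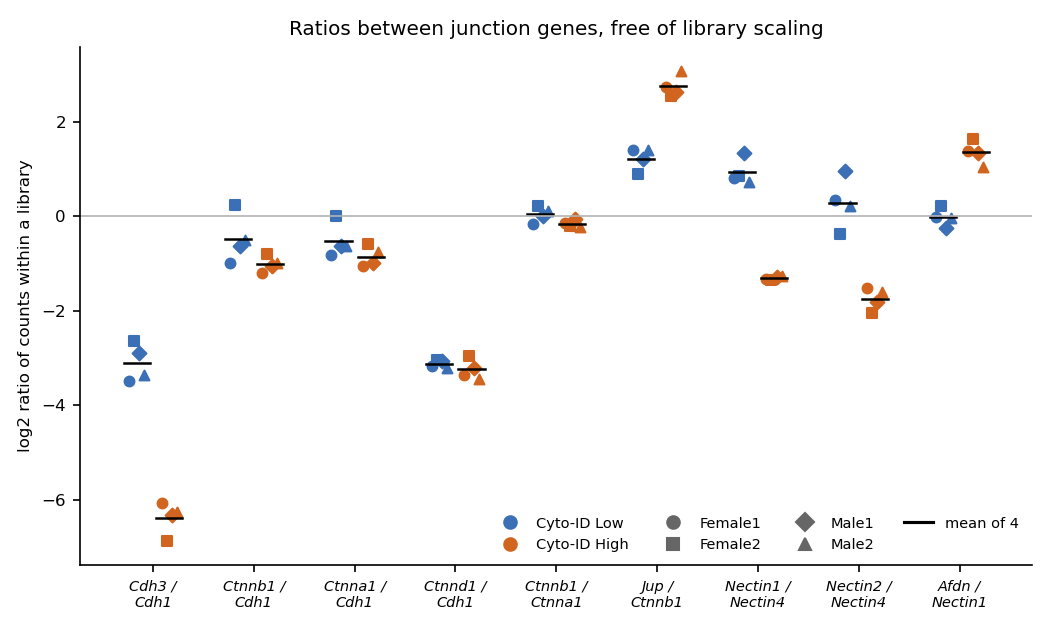
Log2 ratio of the counts of 2 genes within a library (vertical axis) for 9 pairs; colours give the fraction, symbols the animal and black lines the mean of 4. Cdh3 over Cdh1, Jup over Ctnnb1, the ratios of Nectin1 and Nectin2 to Nectin4, and Afdn over Nectin1 do not overlap between fractions, whereas the other 4 ratios do.

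Of the 3 catenins 1 passed the test, Ctnnd1. Ctnna1, the link from the cadherin complex to actin, was at 527, 475, 534 and 552 CPM in Low and 520, 755, 592 and 919 CPM in High. The fractions overlapped: Female1 had nearly equal values in both (log2 difference -0.02), while Male2 differed most (0.74). The log2 change was 0.41 with a 95% interval of -0.02 to 0.85 (edgeR adjusted p = 0.109), and DESeq2 called it (0.48, adjusted p = 0.0232). Ctnnb1, which is both a junction protein and the transcriptional arm of canonical Wnt signalling, was at 469, 556, 535 and 600 CPM in Low and 470, 651, 573 and 784 CPM in High. Its log2 change was 0.19, with an interval of -0.21 to 0.60 (edgeR adjusted p = 0.416), and it changed sign with total counts, as given above.

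Ctnnd1, which binds the membrane-proximal cadherin tail and slows cadherin removal from the surface, was at 103, 57.1, 99.1 and 91.7 CPM in Low and 106, 146, 128 and 143 CPM in High. Its log2 change was 0.58 (SE 0.199, edgeR adjusted p = 0.0349). As for Cdh1, Female2 had the lowest Low value and the largest within-animal difference (1.36), while Female1 differed by 0.04. The call was lost without the High library of Female2 (0.47, adjusted p = 0.109) or of Male2 (0.57, adjusted p = 0.0654), and without both libraries of Male1 (0.65, adjusted p = 0.0771) or of Male2 (0.61, adjusted p = 0.0859). The annotation adds a limit: 4482 of the 7319 exon bases of Ctnnd1 are shared with a same-strand gene model, Gm28635, which has no counts here, so the level of Ctnnd1 is uncertain.

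Relative to Cdh1, the catenins overlapped between fractions. The difference in log2 ratio, High minus Low, was -0.54 for Ctnnb1 over Cdh1 (exact permutation p = 0.0857, adjusted 0.11), -0.33 for Ctnna1 over Cdh1 (exact p = 0.2, adjusted 0.225) and -0.12 for Ctnnd1 over Cdh1 (exact p = 0.343, adjusted 0.343). Within animals, the ratios of Ctnnb1 and of Ctnna1 to Cdh1 were lower in High in 4 of 4, where an exact sign-flip test gives p = 0.125, the smallest that 4 animals allow. The ratio of Ctnnd1 to Cdh1 was lower in 3 of 4 (exact sign-flip p = 0.25). Ctnnd1 over Cdh1 was the tightest of these in Low, at -3.12 ± 0.08 (SD, n = 4), and was -3.24 ± 0.21 in High. In the Low library of Female2, where both genes were low, their ratio (-3.04) was near that of the other 3 animals (-3.21 to -3.07).

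Plakoglobin (Jup), the close relative of beta-catenin that serves both adherens junctions and desmosomes, rose where Ctnnb1 did not pass. Jup was at 1236, 1029, 1235 and 1579 CPM in Low and 3163, 3827, 3539 and 6669 CPM in High, and its log2 change was 1.74 (SE 0.235, edgeR adjusted p = 0.000225). The ratio of Jup to Ctnnb1 was 2.89-fold higher in High, with no overlap (exact permutation p = 0.0286, adjusted 0.0514). Paired within animals, that ratio was higher in High in 4 of 4 (exact sign-flip p = 0.125). Per kilobase, Jup held 65.2% ± 3.83 of the sum of both genes in Low and 84.4% ± 2.07 in High (SD, n = 4). Its share was between 59.9% and 68.0% in the Low libraries and between 82.6% and 87.3% in the High libraries.

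The nectins differed among themselves in how far they rose. Nectin4 (chr1:171370099-171388598) was at 75.8, 57.2, 45.6 and 80.5 CPM in Low and 413, 500, 510 and 720 CPM in High. The means were 64.8 ± 16.2 and 536 ± 131 CPM (SD, n = 4), and the lowest High library was far above the highest Low library. The log2 change was 3.03 (SE 0.25, 95% interval 2.47 to 3.59, edgeR adjusted p = 1.83e-05). Within animals it ran from 2.45 in Female1 to 3.48 in Male1.

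Nectin1 (chr9:43743984-43807461), also known as a receptor for herpes simplex virus entry, was at 134, 103, 116 and 132 CPM in Low and 166, 195, 209 and 299 CPM in High. Its log2 change was 0.82 (SE 0.182, edgeR adjusted p = 0.00429). Nectin2 (chr7:19716644-19750483), whose product is also a ligand of lymphocyte receptors, was at 96.1, 44.2, 89.2 and 93.3 CPM in Low and 145, 122, 145 and 238 CPM in High. Its log2 change was 1.00 (SE 0.25, edgeR adjusted p = 0.00815). Female2 was again the lowest Low library and Male2 the highest High library. Without the Low library of Female2 the log2 change of Nectin2 was 0.83 (adjusted p = 0.00994).

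The make-up of the nectin transcripts differed between fractions. Per kilobase, Nectin4 held 28.0% ± 5.17 of the summed nectin level in Low and 62.9% ± 2.24 in High (SD, n = 4). Nectin1 held 35.2% ± 3.12 and 16.8% ± 0.438, and Nectin2 held 36.7% ± 6.84 and 20.3% ± 2.56. The summed level was 61.9 ± 12.2 CPM per kb in Low and 228 ± 58.5 in High. The ratio of Nectin1 to Nectin4 was 4.74-fold lower in High and that of Nectin2 to Nectin4 was 4.08-fold lower. Neither ratio overlapped between fractions (exact permutation p = 0.0286 each, adjusted 0.0514). Paired within animals, both ratios were lower in High in 4 of 4 (exact sign-flip p = 0.125 each). Among the 4 High libraries the log2 ratio of Nectin1 to Nectin4 varied little, at -1.31 ± 0.04, against 0.94 ± 0.28 in Low (SD, n = 4). Nectin3 was almost absent, with 14 to 27 counts in Low and 3 to 13 in High. Its log2 change of -1.11 did not pass (edgeR adjusted p = 0.0676) but passed when animals were paired (-1.17, adjusted p = 0.0456) and with total counts only (-1.62, adjusted p = 0.0192).

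**Figure D4:**
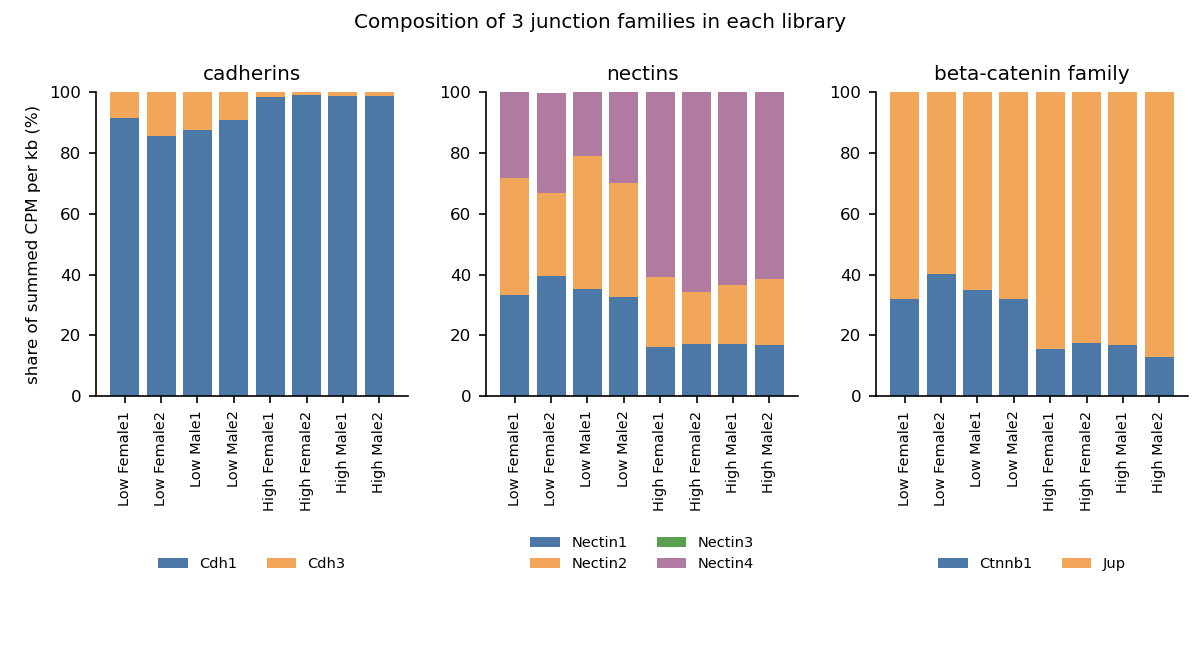
Share of the summed CPM per kb (vertical axis, percent) held by each gene of 3 junction families in each of the 8 libraries. Nectin4 holds 20.9% to 33.0% of the nectin sum in the Low libraries and 60.9% to 65.8% in the High libraries, Cdh3 holds at most 1.52% of the cadherin sum in High, and Jup holds 82.6% to 87.3% beside Ctnnb1 in High.

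Afdn (chr17:13760539-13906150), the scaffold that binds nectin tails, rose with the nectins. It was at 134, 121, 98.6 and 130 CPM in Low and 436, 612, 531 and 619 CPM in High, with means of 121 ± 15.7 and 549 ± 85.3 CPM (SD, n = 4). The log2 change was 2.19 (SE 0.184, 95% interval 1.77 to 2.60, edgeR adjusted p = 2.01e-05), and within animals it ran from 1.71 in Female1 to 2.43 in Male1. Afdn over Nectin1 was 2.58-fold higher in High, without overlap (exact permutation p = 0.0286, adjusted 0.0514). Paired within animals, it was higher in High in 4 of 4 (exact sign-flip p = 0.125). The log2 ratio was -0.01 ± 0.19 in Low, where the counts of both genes were nearly equal, and 1.36 ± 0.25 in High (SD, n = 4). The Afdn exons share 221 bases with Tcte2 on the other strand, a small part of their 10223 bases.

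The sequences before the start sites of Nectin4 and Afdn are shown because these genes rose most and their promoters differ in CG content. They come from the RefSeq promoter table (GRCm38.p6), 5′ to 3′ on the plus strand, kept to the longest stretch without an annotated exon, with every CG dinucleotide in capitals. The first spans chr1:171369923-171370098 and the second chr17:13760369-13760538.
Nectin4: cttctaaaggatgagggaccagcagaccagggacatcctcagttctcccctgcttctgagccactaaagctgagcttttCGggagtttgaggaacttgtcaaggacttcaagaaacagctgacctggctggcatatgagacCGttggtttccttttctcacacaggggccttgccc
Afdn: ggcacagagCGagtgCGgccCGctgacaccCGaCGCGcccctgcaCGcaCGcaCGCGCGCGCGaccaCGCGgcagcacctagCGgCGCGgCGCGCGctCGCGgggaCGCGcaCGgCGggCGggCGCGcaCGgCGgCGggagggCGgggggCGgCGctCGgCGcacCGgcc
The Nectin4 stretch of 176 bases held 2 CG dinucleotides and the Afdn stretch of 170 bases held 39. In the 250 bases before the start site the numbers were 3 and 51, where 29% and 99.9% of the 32851 promoters in the table had fewer and the median was 6. This count was chosen after the changes were known and is a description only.

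The promoters of the table, each 300 bases long with 250 before the start site, were searched for CACCTG and CAGGTG, the E-box bound by Snail and Zeb repressors read on either strand, and for AACCGGTT, a site of the Grhl factors of epithelia. Of the 7 promoter entries, which cover 5 of the 9 genes (Nectin2, Nectin4, Afdn, Ctnnb1 and Ctnnd1), 1 held an E-box and none held AACCGGTT. Over all 32851 promoters 20.2% held the E-box and 0.146% held AACCGGTT. The RefSeq start site of the Nectin2 entry lies inside the annotated span of the gene, which begins at chr7:19750483 on the minus strand. The E-box of Nectin2 began 53 bases before that start site, within chr7:19749609-19749638 on the minus strand, and is shown in capitals with its surroundings.
Nectin2: cgtggggccagaCAGGTGtgggacgcggga

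Placed in order by CPM per kb of exon, Cdh1 was the most abundant of the 9 genes in both fractions, at 168 ± 44.5 in Low and 271 ± 46.6 in High (SD, n = 4). In Low it was followed by Ctnnb1 (104), whose range it overlapped, and by Ctnna1 (81.3). The other 6 genes lay far below these, from 23.1 for Nectin2 to 11.8 for Afdn, and neighbours in that order all overlapped. In High the order changed. Nectin4 stood second at 143 ± 34.8, with ranges that overlapped those of Ctnnb1 (119) and Ctnna1 (108), and Cdh3 stood last at 3.46 ± 1.00. Afdn (53.7), Nectin2 (46.4) and Nectin1 (38.4) followed, below the range of Ctnna1. Among these 3, Nectin2 overlapped both Afdn and Nectin1, and Ctnnd1 (17.9) lay below the range of Nectin1.

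No sex difference was called among the 9 genes. A dependence of the High against Low difference on sex passed for 0 of 9 genes at an adjusted p under 0.05 and for 0 of 9 at an unadjusted p under 0.05 (edgeR interaction term). Over all genes tested it passed for 0.0%, with 19 genes at an unadjusted p under 0.05. With 2 animals of each sex the intervals are wide: for Cdh1 the interaction was 0.04 (95% interval -1.06 to 1.14) and for Nectin4 it was 0.51 (-0.57 to 1.59), on the log2 scale, male minus female. Between male and female animals, with both fractions summed, 0 of 9 genes passed, against 0.0203% of 19687 genes. The male minus female difference of Cdh3 was 0.28 (95% interval -0.12 to 0.67) and that of Nectin2 was 0.41 (-0.17 to 0.99).

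Around these 9 genes, 6 lists held 72 further genes: relatives and partners of junction genes, junction regulators, and 7 transcriptional repressors of Cdh1. Of the 72, 58 were tested in the same fit. Of these 16 were higher in High, 18 were lower and 24 did not pass, with a median log2 change of -0.12 beside -0.09 for all genes tested. Among 16 other classical cadherins, 12 had too few counts to be tested, including N-cadherin (Cdh2), which had 0 to 12 counts a library. Of the 4 tested, 2 were lower (Cdh4 and Cdh24, both at an overall mean under 5 CPM) and none was higher. Cdh24 had a mean of 5.38 CPM in Low and 1.55 CPM in High.

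Among 7 relatives of the catenins, 5 were tested, 2 rose and 2 fell, with a median of 0.10. Jup rose as described, and Ctnnd2, a delta-catenin known from neurons, rose by 2.36 on the log2 scale (edgeR adjusted p = 0.000122) from a low level of 2.02 ± 0.526 to 10.6 ± 3.69 CPM. Ctnnal1, the alpha-catenin-like protein also called alpha-catulin, fell from 52.1 ± 8.29 to 4.77 ± 1.63 CPM (log2 change -3.45, edgeR adjusted p = 1.37e-05; SD, n = 4). Pkp4, a relative of p120-catenin, fell by 1.33 on the log2 scale (edgeR adjusted p = 9.24e-05). Among Nectin3 and 5 nectin-like genes, Cadm4 rose by 1.66 (adjusted p = 0.000456), Cadm1 fell by 1.45 (adjusted p = 0.000187) and 4 did not pass, with a median of -0.23.

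Of 18 junction partners and actin linkers, 8 rose, 7 fell and 3 did not pass, with a median of 0.45. Sorbs3, an adaptor with vinculin-binding SH3 domains, fell from 22.9 ± 6.67 to 2.98 ± 0.664 CPM (log2 change -2.95, edgeR adjusted p = 1.88e-05; SD, n = 4). The LIM-domain proteins Ajuba and Zyx (zyxin), both found at tensed actin, fell by 2.16 (adjusted p = 3.44e-05) and 1.91 (adjusted p = 0.00172) on the log2 scale. Zyx was uneven in Low, at 412, 126, 493 and 362 CPM, and the Female2 library was again the low one. The fractions overlapped for Zyx, with 163 CPM in the High library of Male2. Vinculin (Vcl), which binds alpha-catenin under tension, did not pass (0.30, adjusted p = 0.359), changed sign with total counts (-0.25, adjusted p = 0.392), and passed without the Low library of Female1 (0.60, adjusted p = 0.0207) or both of its libraries (0.54, adjusted p = 0.0288). Its exons share 2090 bases with Ap3m1 on the other strand, so its level is uncertain.

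Of 18 regulators of junction assembly and turnover, 5 rose, 4 fell and 9 did not pass, with a median of 0.13. Fer, a tyrosine kinase that binds p120-catenin, rose from 25.2 ± 1.90 to 119 ± 25.6 CPM (log2 change 2.25, edgeR adjusted p = 1.71e-05; SD, n = 4). The endocytic adaptor Numb rose by 0.92 (adjusted p = 0.00245). Rapgef1, an activator of Rap GTPases, fell by 1.295 (adjusted p = 9.81e-05).

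Of 7 known transcriptional repressors of Cdh1, 2 fell and 5 did not pass, with a median of -0.62. That median ran from -1.08 without the High library of Female1 to -0.03 without both libraries of Male2. Snai2 (Slug) was at 47.3, 59.8, 74.3 and 58.5 CPM in Low and 7.29, 2.79, 4.96 and 4.58 CPM in High, a 12.1-fold fall (edgeR adjusted p = 1.62e-05). Tcf3 fell by 1.17 on the log2 scale (adjusted p = 0.000326). Zeb1 was at 1.06 to 3.05 CPM in Low and 0.257 to 2.01 CPM in High and did not pass (-0.83, adjusted p = 0.264). Its log2 change was -1.32 without the High library of Female1, -0.28 without the Low and -0.44 without the High library of Male2, and -0.03 without both. Zeb2, the gene at the list's median, was at 4.25, 1.18, 2.33 and 0.412 CPM in High, where the summed fibroblast markers were at 464, 150, 329 and 36.9 CPM; their part in the result was not tested.

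**Figure D5:**
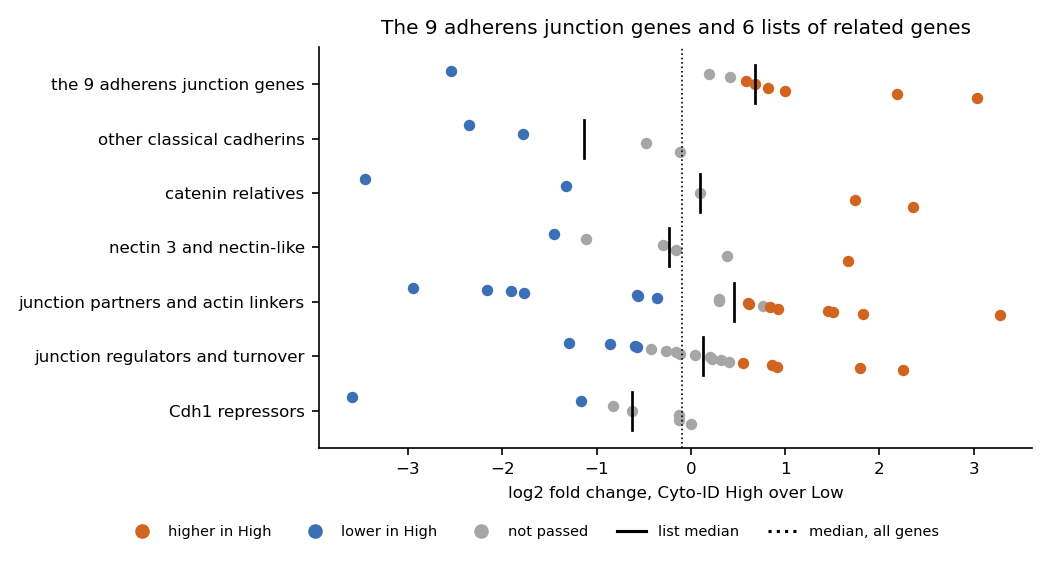
Log2 fold change of High over Low (horizontal axis) for each tested gene of the 9 adherens junction genes and of 6 lists of related genes, coloured by the call; black bars are list medians and the dotted line is the median of all genes tested, -0.0903. The 9 genes have 6 higher and 1 lower, while the 2 largest lists hold genes on both sides.

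Genes whose levels were among the most like those of Cdh1 over the 8 libraries, by Pearson's r of log2 CPM among 10006 genes at a mean of 5 CPM or more, were Fam214b (0.993) and Akirin1 (0.992). For Cdh3 the 3 most similar were Wnt10a (0.998), a Wnt ligand, Ptprs (0.997), a receptor tyrosine phosphatase, and Cblb (0.996), a ubiquitin ligase. The 8 points share animals and 2 fractions, so these values describe these libraries only.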

How the data were processed

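RNA-seq was made from 8 libraries, the Cyto-ID Low and Cyto-ID High fractions of 4 mice. The authors deposited 1 table of raw read counts per gene; STAR 2.7.3, DESeq2 and GRCm38 are named, per the submitters' processing notes, and the counting tool and its strand setting are not given in the sources used here. Libraries were assigned to fraction, animal and sex from the labels. Counts were fitted with edgeR 4.0.16 in R 4.3.3 (filterByExpr, TMM, glmQLFit and glmQLFTest, sex and fraction as terms, two-sided), with Benjamini-Hochberg adjustment over all 17344 genes tested and a threshold of 0.05. Alternatives used DESeq2 1.42.0 and limma 3.58.1. Ratios of counts within a library had an offset of 0.5, an exact permutation test and, within animals, an exact sign-flip test. The fit and the permutation test were tested on simulated data.

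CPM per kb used merged exon lengths of GENCODE M21. Replicates are different animals. Low and High libraries of the same number come from the same animal by their names; the correlation of their deviations from the group means was 0.433, 0.316, -0.0161 and 0.277 for Female1, Female2, Male1 and Male2. The fit with the animal as a block was an alternative.

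All 9 genes are named. From each list up to 4 genes are named, taking the largest fold changes among genes that passed, lay at a mean of 5 CPM or higher and moved one way in all 4 animals, besides Jup, Cdh2, Nectin3, Vcl, Snai2 and Zeb1. Cdh4 and Cdh24 were named after their values were seen. For Cdh1 and Cdh3 the rule names the 3 most similar genes. Some genes that these rules select are not reported here. The 9 genes and the lists were chosen with earlier results of these data known.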

Additional observations from a re-analysis of the deposited data

Results flagged for a closer look

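In 2 of 74 groups of 4 libraries, 1 library stood apart from the other 3 by Dixon's ratio; chance alone singles out about 1 in 20 groups. Both were the Low library of Female2 as the lowest. Its log2 CPM of Cdh1 was 8.879, against 9.697, 9.729 and 9.859 in the other Low libraries. Its log2 CPM of Nectin2 was 5.469, against 6.48, 6.545 and 6.587. Without that library the log2 change of Cdh1 was 0.53 (edgeR adjusted p = 0.0306) and that of Nectin2 was 0.83 (adjusted p = 0.00994). The cause was not tested.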

How the results depend on the processing

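Of 53 results, 38 were changed by none of the alternatives run for them, among them Cdh3, Nectin4, Afdn, Jup and Snai2. A tested value counted as unchanged when it kept its direction and side of the threshold, and a count when it stayed within 1.5 times. Genes and lists had up to 9 alternative settings and 12 fits without some libraries. The ratios had 11 alternatives and the sex results 3, and all of these results are among the 38. No ratio passed in any alternative, and the sex counts stayed at 0. With so few libraries the ratios could hardly pass, so little but their direction could change. With total counts only, 4 of the 9 genes passed, and the log2 changes were 0.12 for Cdh1, -0.18 for Ctnna1, -0.39 for Ctnnb1, 0.0123 for Ctnnd1, 0.24 for Nectin1, 0.43 for Nectin2, -1.62 for Nectin3, which then passed, and -0.25 for Vcl. The list medians with total counts were -0.50 for catenin relatives, -0.11 for partners and linkers and -0.40 for regulators. Of all calls, 48.0% were higher in High with TMM and 20.5% with total counts. DESeq2 called Ctnna1 (0.48). Without a filter the median of other classical cadherins was -0.22 and that of catenin relatives 1.29; when each library had to hold 10 counts or more, the medians were -2.08 for other classical cadherins and -2.39 for Cdh1 repressors, in each case over a different set of tested genes. With the animal as a block, Nectin3 passed (-1.17), the calls of the 9 genes did not change, 16 in place of 15 partners and linkers passed, and 9336 genes passed in all.

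Leaving out libraries gave 6563 to 8106 genes and 5 to 7 of the 9 genes. The log2 change of Cdh1 ran from 0.53 to 0.88, of Ctnnd1 from 0.37 to 0.74 and of Vcl from 0.13 to 0.60. The list medians ran from -0.10 to 0.24 for catenin relatives, -0.66 to 0.0379 for Nectin3 and nectin-like genes and -0.0169 to 0.40 for regulators; catenin relatives changed sign without the High library or both libraries of Male2, nectin-like genes without both libraries of Male2, and regulators without the High library of Female2. The cause of these shifts was not tested. With 4 libraries a fraction no ratio can pass after adjustment over 9 ratios unless more of them reach the smallest p. The lowest count of any of the 9 genes in a library was 221.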
